A study of Mus musculus with 12 samples.

Results

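The respiratory chain subunit genes of the nucleus were followed in mouse liver after exposure to secondhand smoke (SHS). Genes were taken by symbol alone: Nduf followed by a, b, c, s or v and a digit, Sdha to Sdhd, symbols that begin with Uqcr or Atp5, and Cox with a subunit number of the nuclear series and a letter. This rule found 81 genes with a probe set of their own among the 18193 such genes on the Affymetrix Mouse Genome 430 2.0 array, and these 81 genes were covered by 164 of the 45037 probe sets tested. By complex, 33 genes belonged to complex I, 4 to complex II, 8 to complex III, 17 to complex IV and 17 to complex V. The other 2, Ndufa4 and Ndufa4l2, carry complex I names, but the Ndufa4 protein is now placed in complex IV. A further 9 probe sets name a subunit gene together with another gene and were left out of the counts. None of these 9 passed the test in any comparison.

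The respiratory chain passes electrons from NADH (complex I) and from succinate (complex II) through coenzyme Q to complex III, and from there through cytochrome c to complex IV, which reduces oxygen. The proton gradient built up on the way drives ATP synthase, complex V. Subunits of complexes I, III, IV and V come from both the mitochondrial and the nuclear genome, whereas complex II is wholly nuclear, and hepatocytes, which are rich in mitochondria, use this ATP for glucose, urea and lipid synthesis. The array's table held no probe set for the mitochondrially encoded subunits, so the values below cover the nuclear part of the chain.

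Livers came from adult male C57BL/6 mice that were 6 to 8 weeks old at the start. There were 4 arrays of mice at the end of a 4-month SHS exposure (SHS4m, replicates 66 to 69), 4 of mice given clean air for 1 month after the same exposure (named SHS4m+1m recovery, with replicates 70 to 73), and 4 of sham-treated mice kept in HEPA-filtered air (Control, replicates 1 to 4). The control mice had subgroups with and without the recovery month, and the labels do not say from which subgroup the 4 Control arrays came, so SHS and a 1-month difference in age cannot be told apart in a comparison with these controls. Both SHS groups were set against the same 4 Control arrays. Values are log2 of the deposited signal, with signals below 32 raised to 32 (a log2 floor of 5). A gene was read by the brightest probe set that names it alone, and levels are not compared between genes. In RNA of whole liver, fewer cells of a type and less RNA per cell cannot be told apart.

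The median signal of the arrays was 65.15 to 78.16, and 29.9% to 33.5% of the probe sets of an array were below the floor. Actin signal at the 3' end over that at the 5' end served as a gauge of RNA integrity. This ratio reached 8.82 for recovery replicate 72, where the remaining 11 livers gave 3.24 to 4.64. By group it was 3.24 to 3.9 in Control, 3.9 to 4.64 in SHS4m and 4.1 to 8.82 in recovery livers. No array of either SHS group thus lay below a Control array. For Gapdh the same ratio overlapped between Control and either SHS group. The part of RNA integrity in the subunit differences was not tested. The summed signal of 6 hepatocyte markers was 232000 to 254000 in SHS4m livers, 195000 to 313000 in recovery livers and 244000 to 283000 in Control livers, and none of the 6 passed the test. Their SHS4m minus Control differences ranged from -0.36 to 0.89. At an unadjusted p under 0.05 from limma 1 was higher and 2 lower, where 17.4 percent of all probe sets had such a p. SHS4m and Control values did not overlap for 4 of the 6, against 11.8 percent of all probe sets. Of 6 macrophage and Kupffer cell markers, Clec4f was lower (log2 difference -0.51, adjusted p = 0.0173 from limma) and Marco higher (1.9, adjusted p = 0.0137) in SHS4m than in Control livers, and of 4 adipose markers Fabp4 was higher (1.1, adjusted p = 0.0169). Of the macrophage markers 1 lay above 0 and 5 below. The adipose markers ranged from -0.21 to 1.21, with 2 above 0 and 2 below. The summed signal was 7040 to 9070 in SHS4m, 7680 to 10800 in recovery and 9010 to 10900 in Control livers for the macrophage markers, and 1660 to 2420, 524 to 886 and 795 to 1110 for the adipose markers, of which Adipoq was near the floor. In recovery against SHS4m livers Clec4f was higher (0.46, adjusted p = 0.0442) and Fabp4 lower (-1.67, adjusted p = 0.00524). There, too, 2 adipose markers lay above 0 and 2 below. The summed signal of 4 B and T cell markers was 178 to 213 in SHS4m, 267 to 384 in recovery and 258 to 455 in Control livers, so that the SHS4m livers lay below both other groups, although none of the 4 was called. The part of these cell types in the subunit values was not tested.

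Most subunit genes were bright, and their signals spread little between arrays. Of the 81 genes, 70 had a mean log2 signal of 12.01 to 15.9 over the 12 arrays, 6 had a mean of 6.83 to 9.34, and 5 reached the floor on 1 or more arrays (Cox4i2, Cox6b2, Cox7b2, Cox8b and Ndufb4). The bright probe sets of Ndufb4, at 12.59 to 12.82 and 13.63 to 13.76, also name Ndufb4b and Ndufb4c and were left out by the rule. Arrays of the same group differed little: the median within-group SD was 0.0883 over the 81 genes, against 0.28 over all probe sets, and the median standard error of a log2 difference was 0.0615 against 0.192. All probe sets include many dim ones, and no set of genes matched for signal was compared. The highest log2 signal of an array was 15.88 to 16.49, so the brightest subunits lay near the top of the range. The part of brightness in the small spread and differences was not tested. In SHS4m livers the log2 difference from Control ranged from -0.83 (Cox7a1) to 0.89 (Cox7c), with a median of -0.04, where the median over all probe sets was 0. When arrays were centred on their median, these medians were 0.04 and 0.08. They were -0.04 and -0.02 with a floor of 16, and -0.04 and -0.06 with a floor at the 25th percentile of each array. With no floor they were -0.04 and -0.05, and with dim probe sets left out both were -0.04. Whether the subunit median lay below that of all probe sets thus depended on how dim signals were treated. In recovery livers the log2 difference from Control ranged from -0.75 (Cox6b2) to 0.58 (Cox7c), with a median of -0.003. These 3 genes at the ends of the range are among the 11 with a mean log2 signal under 10.

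Among the 70 genes with a mean log2 signal of 10 or more, the 95% confidence interval of the SHS4m minus Control difference lay within ±0.5 for 69 and within ±1, a 2-fold change, for all 70. For the recovery minus Control difference these counts were 67 and 70. A change of 2-fold or more was therefore outside the interval of the brightest probe set of each of these 70 genes in both comparisons. Among the 11 dimmer genes the interval lay within ±1 for 7 in each comparison. Over all 164 probe sets of the subunits it lay within ±1 for 153 in SHS4m minus Control and 152 in recovery minus Control.

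**Figure D1:**
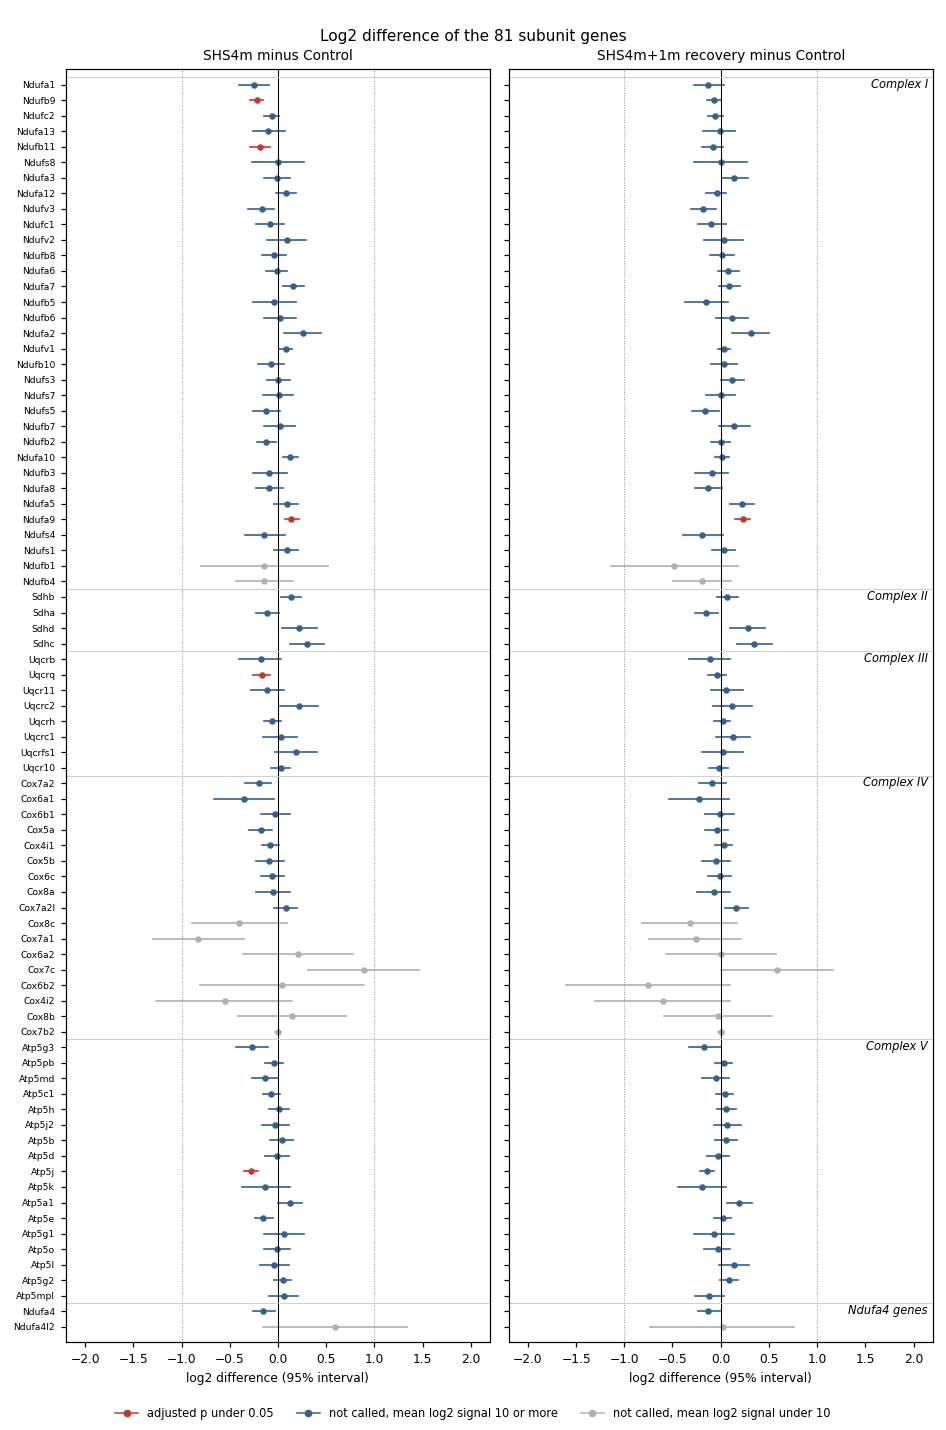
Log2 difference from Control (x axis, point, with its 95% interval as a line) of the 81 subunit genes, grouped by complex and ordered within a complex by mean signal, for SHS4m livers on the left and SHS4m+1m recovery livers on the right. The 70 genes with a mean log2 signal of 10 or more all lie between the dotted lines at a 2-fold change, the widest intervals are among the 11 dimmer genes, in grey, and genes called by limma are in red.

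At a Benjamini-Hochberg adjusted p under 0.05 from limma, 5 of the 81 genes differed between SHS4m and Control livers, 1 higher and 4 lower. This is 6.17% of the members, where the test called 5.4 percent of all probe sets (2.52 percent higher and 2.87 percent lower) and 7.47% of the brightest probe sets of all genes. Between recovery and Control livers 1 gene was called, higher, which is 1.23% against 2.07 percent of all probe sets (0.877 percent higher and 1.19 percent lower). Between recovery and SHS4m livers 2 genes were called, both higher, which is 2.47% against 2.54 percent (1.32 percent higher and 1.22 percent lower). Of the brightest probe sets of all genes, 2.52% were called between recovery and Control livers and 3.68% between recovery and SHS4m livers. In each comparison the share of subunit genes was thus near that of all probe sets and below that of the brightest probe sets. Read by its brightest probe set, no subunit passed a threshold of an unadjusted p under 0.05 with a 2-fold change. Of all probe sets, 2.47 percent, 1.37 percent and 1.7 percent passed it in the same comparisons.

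At an unadjusted p under 0.05 alone, 24 of the 81 genes differed between SHS4m and Control livers, 10 higher and 14 lower, or 29.6% against 17.4 percent of all probe sets (7.49 percent higher and 9.95 percent lower) and 22.5% of the brightest probe sets of all genes. The 4 values of the groups did not overlap for 23 of the 81, or 28.4%. This was so for 11.8 percent of all probe sets and 15.5% of the brightest probe sets of all genes. The subunit values also spread less than those of all probe sets, and the part of this in both counts was not tested. Between recovery and Control livers 17 genes had such a p, 10 higher and 7 lower, or 21% against 13.3 percent (5.77 percent higher and 7.53 percent lower), and the groups did not overlap for 9, or 11.1% against 7.61 percent. Between recovery and SHS4m livers 18 genes had such a p, 15 higher and 3 lower, or 22.2% against 13.7 percent (7.1 percent higher and 6.63 percent lower), and the groups did not overlap for 4, or 4.94% against 8.24 percent. Of the brightest probe sets of all genes, 16.1% had such a p between recovery and Control livers and 18.2% between recovery and SHS4m livers. Their shares without overlap were 9.56% and 11.3%.

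Complex V gave the largest called difference. Atp5j, which encodes coupling factor 6 of the peripheral stalk of ATP synthase, had log2 signals of 14.21, 14.14, 14.16 and 14.2 in SHS4m livers, 14.35, 14.34, 14.33 and 14.26 in recovery livers, and 14.52, 14.42, 14.48 and 14.41 in Control livers. The 3 groups did not overlap, with the recovery livers between the other two. Atp5j fell by 17.7% in SHS4m livers (log2 difference -0.28, standard error 0.031, 95% interval -0.35 to -0.21, adjusted p = 0.00141 from limma). In recovery livers it was 0.14 above SHS4m (adjusted p = 0.0448) and differed from Control by -0.14 (adjusted p = 0.0597). The call against Control held when any 1 of the 12 arrays was left out, and was lost when arrays were centred on their median, without the floor, with the floor at the 25th percentile of each array, or when dim probe sets were left out before the fit. The call against SHS4m was lost in 9 of the 12 fits that left out 1 array.

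Of the other 16 complex V genes none was called in any comparison, and their SHS4m minus Control differences ranged from -0.27 to 0.12. Atp5e, the epsilon subunit of the F1 part, did not pass the test, with 13.59, 13.54, 13.62 and 13.66 in SHS4m livers, 13.74, 13.74, 13.86 and 13.74 in recovery livers, and 13.78, 13.66, 13.77 and 13.79 in Control livers. Its difference was -0.15 in SHS4m minus Control (adjusted p = 0.0751) and 0.17 in recovery minus SHS4m (adjusted p = 0.0721). The catalytic subunits Atp5a1 (alpha) and Atp5b (beta) differed by 0.12 and 0.04 in SHS4m minus Control (adjusted p = 0.29 and 0.79). For Atp5a1 the values of both SHS groups lay above all Control values on this probe set, and a second probe set was called higher in SHS4m livers (0.16, adjusted p = 0.0406). Atp5e and Atp5b were named after their values were seen. The 3 genes Atp5g1, Atp5g2 and Atp5g3 encode the same mature ring subunit from separate loci. Their SHS4m minus Control differences were 0.06, 0.05 and -0.27 (adjusted p = 0.831, 0.641 and 0.0728). For Atp5g3 the SHS4m values of 15.22, 15.1, 15.07 and 15.13 lay below the Control values of 15.47, 15.39, 15.42 and 15.3 without overlap, while the recovery values of 15.2, 15.35, 15.34 and 15.01 overlapped both.

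In complex I, 3 of 33 genes were called between SHS4m and Control livers, 2 lower and 1 higher, where 2.87 percent of all probe sets were called lower and 2.52 percent higher. Ndufb9, an accessory subunit of the membrane arm, had log2 signals of 14.6, 14.51, 14.61 and 14.57 in SHS4m livers, 14.72, 14.78, 14.72 and 14.65 in recovery livers, and 14.82, 14.79, 14.75 and 14.8 in Control livers. The SHS4m values lay below all others, and the recovery values overlapped those of Control. Ndufb9 fell by 14.1% in SHS4m livers (log2 difference -0.22, standard error 0.0312, adjusted p = 0.00444 from limma) and was 0.15 higher in recovery than in SHS4m livers (adjusted p = 0.0424). Its recovery minus Control difference was -0.07 (adjusted p = 0.346). The call in SHS4m livers held when any 1 array was left out, whereas that of recovery against SHS4m held in 1 of 12 such fits.

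Ndufb11, another membrane arm subunit, had 14.32, 14.27, 14.26 and 14.27 in SHS4m livers, 14.36, 14.41, 14.49 and 14.26 in recovery livers, and 14.53, 14.48, 14.42 and 14.43 in Control livers. It fell by 12.0% in SHS4m livers (log2 difference -0.19, standard error 0.0461, adjusted p = 0.0492 from limma), and its recovery minus Control difference was -0.08 (adjusted p = 0.504). The call was kept in 2 of the 12 fits that left out 1 array.

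Ndufa9, which sits where the matrix arm meets the membrane arm, went the other way. Its log2 signals were 12.76, 12.78, 12.81 and 12.84 in SHS4m livers, 12.83, 12.93, 12.91 and 12.85 in recovery livers, and 12.61, 12.67, 12.61 and 12.72 in Control livers. Every array of both SHS groups was above every Control array. Ndufa9 rose by 10.5% in SHS4m livers (log2 difference 0.14, standard error 0.0335, adjusted p = 0.0371 from limma) and by 17.0% in recovery livers (0.23, adjusted p = 0.0124), the 1 subunit called there. The recovery minus SHS4m difference was 0.08 (adjusted p = 0.297). Against Control, the call in recovery livers held in all 12 fits that left out 1 array, and that in SHS4m livers in 5.

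The 6 core complex I subunits with a probe set of their own, which belong to the matrix arm where NADH is oxidised and electrons pass to coenzyme Q (Ndufs1, Ndufs3, Ndufs7, Ndufs8, Ndufv1 and Ndufv2), had SHS4m minus Control differences between 0 and 0.09 and recovery minus Control differences between 0 and 0.12. None was called. The 27 other complex I genes ranged from -0.25 to 0.26 and from -0.48 to 0.31 in the same comparisons. Ndufa2, named after its values were seen, was highest among them, with 13.58, 13.43, 13.53 and 13.36 in SHS4m livers, 13.43, 13.47, 13.79 and 13.4 in recovery livers, and 13.2, 13.22, 13.3 and 13.14 in Control livers. Its groups did not overlap those of Control, but its differences of 0.26 and 0.31 did not pass the test (adjusted p = 0.137 and 0.122).

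In complex III, 1 of 8 genes was called between SHS4m and Control livers, lower, against 2.87 percent of all probe sets. Uqcrq, a small subunit near the quinone sites, had 14.02, 14.08, 14.05 and 14.14 in SHS4m livers, 14.16, 14.26, 14.27 and 14.11 in recovery livers, and 14.23, 14.25, 14.29 and 14.21 in Control livers. The SHS4m values lay below all Control values, and the recovery values overlapped both. It fell by 11.2% in SHS4m livers (log2 difference -0.17, standard error 0.0406, adjusted p = 0.0397 from limma), a call kept in 5 of the 12 fits that left out 1 array. The calls against Control of Uqcrq, Ndufb9, Ndufb11 and Ndufa9 were lost with arrays centred on their median, with each other floor tried or none, and with dim probe sets left out. Those of Ndufa9 were lost also in fits of 2 groups only, and that in SHS4m livers with quantile normalization. The calls of Atp5j and Ndufb9 in recovery against SHS4m livers were kept under 3 and 2 of the 9 other settings. The other 7 genes of complex III, the core proteins Uqcrc1 and Uqcrc2 and the Rieske protein Uqcrfs1 among them, ranged from -0.18 to 0.22 in SHS4m minus Control. In recovery minus Control all 8 lay between -0.11 and 0.13.

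**Figure D2:**
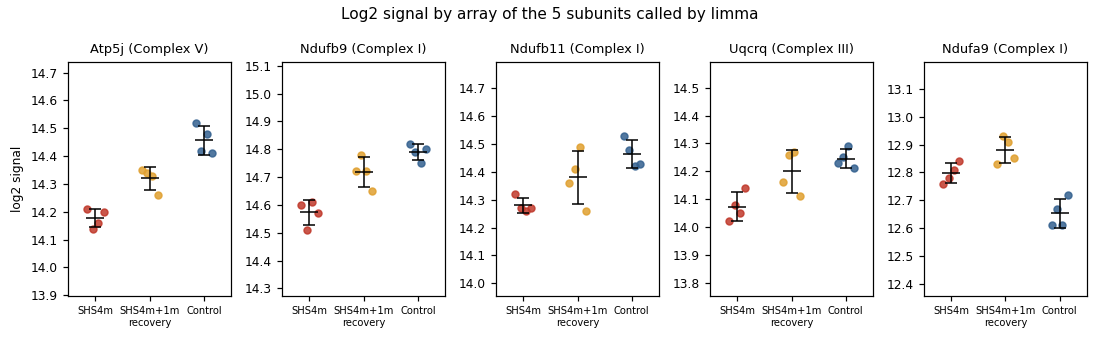
Log2 signal (y axis, each panel spanning the same range around its own mean) of the 5 subunits called by limma in SHS4m against Control, by array, in SHS4m, SHS4m+1m recovery and Control livers, with the mean and SD of each group as bars (n = 4). Atp5j, Ndufb9, Ndufb11 and Uqcrq were lower and Ndufa9 higher in SHS4m than in Control livers, each without overlap of these groups, and the recovery values of Atp5j lie between the other groups.

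Of the called genes, the upstream sequence is shown for Atp5j and Ndufb11, which fell, and Ndufa9, which rose. Any part of this sequence in these directions was not tested. RefSeq sequence (build GRCm38.p6) of the 250 bases before a gene start was at hand for 66 of the 81 genes, among them Atp5j, Ndufa9 and Ndufb11, and is read 5' to 3' on the gene's own strand. Capitals mark matches, on either strand, to CCGGAAG, the site of the ETS factor GABP, and AAGATGGC, the site of YY1, which do not overlap each other. The windows of Ndufa9 and Ndufb11, and the other listed start of Atp5j, held no match to these motifs or to that of NRF-1. The same holds for AAGGTCA, the letters bound by the estrogen-related receptors (ERR). A TATA box, searched as TATAAA, was not found in these windows either.
Atp5j (chr16:84834977-84835226, minus strand): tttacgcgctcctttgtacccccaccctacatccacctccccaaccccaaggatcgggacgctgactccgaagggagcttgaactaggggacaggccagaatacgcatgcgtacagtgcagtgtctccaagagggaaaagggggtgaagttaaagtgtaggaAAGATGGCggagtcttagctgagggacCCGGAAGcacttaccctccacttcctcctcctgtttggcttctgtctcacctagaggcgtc
Ndufa9 (chr6:126849145-126849394, minus strand): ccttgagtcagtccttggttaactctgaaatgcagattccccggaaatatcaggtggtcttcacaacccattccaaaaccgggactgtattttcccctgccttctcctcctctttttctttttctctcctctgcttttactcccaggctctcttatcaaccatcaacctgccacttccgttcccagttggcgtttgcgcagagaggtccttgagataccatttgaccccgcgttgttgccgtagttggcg
Ndufb11 (chrX:20617620-20617869, minus strand): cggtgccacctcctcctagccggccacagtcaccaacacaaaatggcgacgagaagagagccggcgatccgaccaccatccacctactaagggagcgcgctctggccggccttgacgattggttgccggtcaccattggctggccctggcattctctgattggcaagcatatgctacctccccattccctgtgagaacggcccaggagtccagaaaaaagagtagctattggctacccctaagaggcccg

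Complex II, succinate dehydrogenase, had none of its 4 genes called, but 3 of them averaged above Control in both SHS groups. These genes were described as a whole complex after their values were seen. Sdhc, a membrane anchor subunit, had 12.41, 12.68, 12.53 and 12.57 in SHS4m livers, 12.52, 12.66, 12.77 and 12.47 in recovery livers, and 12.24, 12.19, 12.18 and 12.38 in Control livers. Every array of both SHS groups was above every Control array, with differences of 0.3 (95% interval 0.12 to 0.48, adjusted p = 0.0646) and 0.35 (0.17 to 0.53, adjusted p = 0.0596).

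Sdhd, the other anchor, had 12.4, 12.73, 12.57 and 12.58 in SHS4m livers, 12.57, 12.62, 12.76 and 12.58 in recovery livers, and 12.26, 12.24, 12.49 and 12.41 in Control livers. Only the recovery group did not overlap Control, and the differences were 0.22 in SHS4m livers (adjusted p = 0.169) and 0.28 in recovery livers (adjusted p = 0.126). Sdhb, the iron-sulfur subunit, had differences of 0.14 and 0.07 (adjusted p = 0.149 and 0.633). Sdha, the flavoprotein that oxidises succinate, differed from Control by -0.11 and -0.15 (adjusted p = 0.316 and 0.229). The SHS4m values of 13.9, 13.9, 13.84 and 13.95, lay below its Control values of 14.04, 14.04, 14.0 and 13.96. The second probe set of Sdhc above the floor gave 0.05 and 0.17, and that of Sdhd 0.32 and 0.01, so the probe sets of a gene differed in how far they moved.

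**Figure D3:**
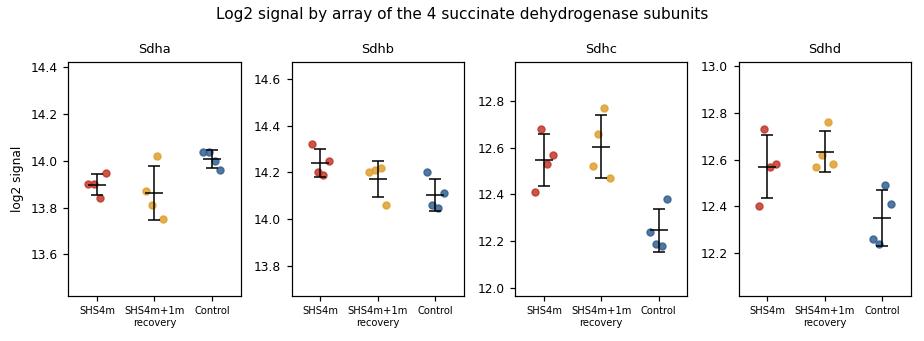
Log2 signal (y axis, each panel spanning the same range around its own mean) of Sdha, Sdhb, Sdhc and Sdhd by array in SHS4m, SHS4m+1m recovery and Control livers, with the mean and SD of each group as bars (n = 4). The Sdhc values of both SHS groups lie above all 4 Control values, and the Sdha values of SHS4m livers lie below the Control values of Sdha.

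Read array by array, the median deviation of the 4 complex II genes from their Control means was 0.11 to 0.24 on SHS4m arrays, 0.09 to 0.26 on recovery arrays and -0.05 to 0.03 on Control arrays. For complex I these ranges were -0.09 to 0.01, -0.07 to 0.04 and -0.02 to 0.03. Complex II thus separated the arrays of both SHS groups from those of Control, which complex I did not. For complex III the ranges were -0.08 to 0.04, -0.06 to 0.08 and -0.03 to 0.08, and for complex V they were -0.06 to 0, -0.06 to 0.05 and -0.04 to 0.05. Complex IV was lowest, at -0.21 to -0.02 on SHS4m arrays, -0.11 to 0.09 on recovery arrays and -0.05 to 0.09 on Control arrays. With 4 genes behind each complex II median, these are descriptions with no test.

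**Figure D4:**
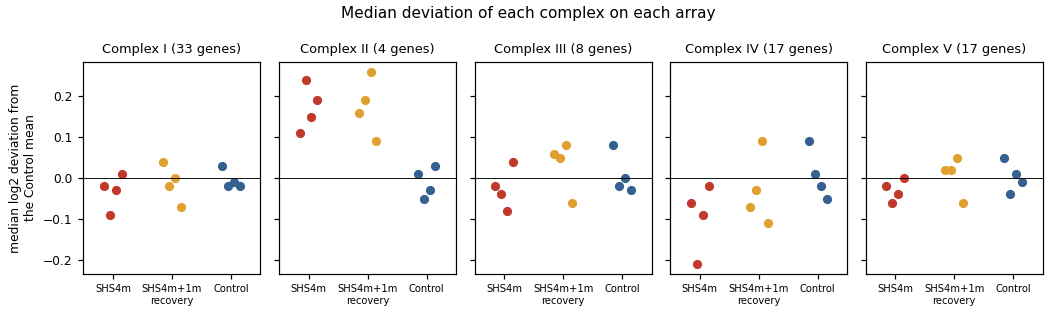
Median over the genes of a complex of the log2 deviation from the Control mean of each gene (y axis), 1 point an array, for complexes I to V in SHS4m, SHS4m+1m recovery and Control livers. The complex II points of both SHS groups lie at 0.09 or more and those of Control at 0.03 or less, while the groups overlap in the other complexes.

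Complex IV had none of its 17 genes called. The ubiquitous, liver-expressed isoforms of its paired subunits had SHS4m minus Control differences of -0.08 for Cox4i1, -0.35 for Cox6a1, -0.03 for Cox6b1, -0.2 for Cox7a2 and -0.05 for Cox8a (adjusted p from 0.0913 to 0.929). For Cox7a2 the SHS4m and Control values did not overlap, at 15.37 ± 0.0447 in SHS4m livers and 15.58 ± 0.0376 in Control livers (SD, n = 4), with 15.49 ± 0.137 in recovery livers. Cox6a1 had the widest spread in recovery livers, where replicate 72 gave 15.6 and replicate 73 gave 14.91.

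The isoforms known from muscle, lung or testis were dim or at the floor. Cox7b2 was at the floor on all 12 arrays, Cox8b on 6, Cox6b2 on 2 and Cox4i2 on 1. Cox7a1, the heart and muscle isoform, had the lowest difference of the 81 genes, with 6.69, 6.5, 6.5 and 7.08 in SHS4m livers, 6.9, 7.38, 7.14 and 7.61 in recovery livers, and 7.71, 7.0, 7.71 and 7.67 in Control livers. SHS4m replicate 69 lay above Control replicate 2, and the other SHS4m values lay below all Control values. Its difference of -0.83 (95% interval -1.3 to -0.35) did not pass the test (adjusted p = 0.0549), but did with dim probe sets left out, without Control replicate 2 or without SHS4m replicate 69, with a lowest adjusted p of 0.0213. The summed signal of 5 skeletal muscle markers was 321 to 411 in SHS4m livers, 247 to 384 in recovery livers and 275 to 393 in Control livers, and none of the 5 was called.

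The other isoforms, Cox6a2, Cox6b2, Cox8b, Cox8c and Cox4i2, had SHS4m minus Control differences of 0.21, 0.04, 0.15, -0.4 and -0.55 (adjusted p from 0.411 to 1). Cox7c, a subunit with no tissue isoform, was read here by a dim probe set, with 7.66, 6.83, 7.16 and 7.24 in SHS4m livers, 6.97, 6.48, 7.57 and 6.65 in recovery livers, and 6.53, 6.28, 6.57 and 5.97 in Control livers. The SHS4m values lay above all Control values, with a difference of 0.89 that did not pass the test (adjusted p = 0.0871). Ndufa4 had differences of -0.15 in SHS4m livers and -0.13 in recovery livers (adjusted p = 0.148 and 0.317), and the dim Ndufa4l2 of 0.59 and 0.02 (adjusted p = 0.423 and 1).

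Different probe sets of a gene differed by amounts near those of the smaller called differences. For the 43 genes with more than 1 probe set above the floor on every array, the median range between probe sets of a gene was 0.12 in SHS4m minus Control, 0.15 in recovery minus Control and 0.08 in recovery minus SHS4m. The range was under 0.25 for 37, 33 and 36 of the 43 and at most 0.8, 0.42 and 0.73, and probe sets of a gene had opposite signs in 17, 21 and 22. With all 164 probe sets read singly, 8 were called between SHS4m and Control livers, 4 between recovery and Control livers and 3 between recovery and SHS4m livers, or 4.88%, 2.44% and 1.83%. In 8 genes the probe sets differed in their call, Ndufb9, Ndufb11 and Uqcrq among them.

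In Cox6c, whose product is a small complex IV subunit, the call rested on the dimmer probe set. Its brightest probe set differed between recovery and Control livers by -0.01 (adjusted p = 1.0). The other probe set had 14.32, 14.33, 14.53 and 14.42 in recovery livers, 14.1, 14.07, 14.21 and 14.2 in SHS4m livers, and 14.1, 14.1, 14.04 and 14.06 in Control livers. On it Cox6c was higher in recovery than in Control livers by 0.33 (adjusted p = 0.0147) and than in SHS4m livers by 0.25 (adjusted p = 0.0319), with no overlap.

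A second probe set of Cox7a2 was lower than Control by -0.25 in SHS4m livers (adjusted p = 0.0107) and by -0.21 in recovery livers (adjusted p = 0.0406), where the brightest gave -0.2 and -0.09. Its values were 14.03, 13.97, 13.95 and 14.05 in SHS4m livers, 14.09, 14.06, 13.99 and 14.03 in recovery livers, and 14.38, 14.19, 14.25 and 14.2 in Control livers. Both SHS groups thus lay below Control on every array of this probe set. A second probe set of Ndufa12 (0.17, adjusted p = 0.0362) was higher in SHS4m livers, like that of Atp5a1, and 1 of Ndufc1 was lower in recovery livers (-0.28, adjusted p = 0.0426). The files do not say which transcript ends these probe sets measure.

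The coactivators that are known to drive these genes had larger differences in SHS4m livers than any subunit had. Ppargc1a, which encodes PGC-1alpha, a coactivator of NRF-1, GABP and ERR on genes of the respiratory chain, had 10.44, 10.66, 10.89 and 9.99 in SHS4m livers, 9.13, 8.81, 8.42 and 8.89 in recovery livers, and 9.02, 9.09, 8.68 and 8.24 in Control livers. Its SHS4m values lay above all others, with a difference from Control of 1.74 (adjusted p = 0.00422 from limma). It was lower in recovery than in SHS4m livers by -1.68 (adjusted p = 0.00886), against a recovery minus Control difference of 0.06 (adjusted p = 1.0). Ppargc1b, its paralog, rose in SHS4m livers by 1.31 (adjusted p = 0.0353), with 10.79, 11.3, 11.27 and 10.61 in SHS4m livers, 10.12, 10.66, 10.89 and 10.71 in recovery livers, and 10.07, 10.15, 9.65 and 8.85 in Control livers. Its recovery minus Control difference was 0.92 (adjusted p = 0.186), and its call in SHS4m livers was kept in 5 of the 12 fits that left out 1 array.

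Esrra, the nuclear receptor ERRalpha, rose in both SHS groups, by 0.66 in SHS4m livers (adjusted p = 0.044) and by 0.75 in recovery livers (adjusted p = 0.0477). It had 9.28, 9.86, 9.86 and 9.51 in SHS4m livers, 9.92, 9.35, 9.75 and 9.86 in recovery livers, and 8.99, 8.79, 9.13 and 8.96 in Control livers. Every array of both SHS groups was above Control. Either call was kept in 2 of the 12 fits that left out 1 array, while those of Ppargc1a against Control and against SHS4m were kept in all 12. Polg, the mitochondrial DNA polymerase, fell in SHS4m livers by 0.41 on the log2 scale (adjusted p = 0.0126) and was higher in recovery than in SHS4m livers by 0.38 (adjusted p = 0.0298), a call kept in 7 of the 12 fits that left out 1 array. Of the 9 other settings, all kept both calls of Ppargc1a, 7 that of Ppargc1b, 4 and 3 those of Esrra in SHS4m and recovery livers, and 5 and 2 those of Polg against Control and against SHS4m. In all, 3 of 14 listed regulators of mitochondrial transcription and replication were called higher and 1 lower in SHS4m livers, where 2.52 percent of all probe sets were called higher and 2.87 percent lower, and the median of the 14 was 0.03.

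Matches to the NRF-1 motif (its 10 letters, with 1 free position, stand in capitals in the windows printed below) were found in the 250 upstream bases of 11 of the 66 subunit genes with a RefSeq start (16.7%), on either strand, against 4.23% of all 27025 genes and 5.84% of the protein-coding genes in the same table. For the GABP letters given above the shares were 18.2% of the subunit genes against 7.83% of all genes and 10.2% of the protein-coding genes. For those of ERR they were 7.58% against 4.7% and 4.18%, for those of YY1 1.52% against 1.83% and 1.77%, and for the TATA box 10.6% against 14.3% and 13.7%. A match is a string of letters, not a bound site. A selection of the NRF-1 matches is printed below, with the motif in capitals and 10 bases to each side, on the gene's own strand, because NRF-1 is a partner of PGC-1alpha and the subunit genes that carry its letters could be set beside the coactivator.
Sdhd (chr9:50603909-50603938, minus strand): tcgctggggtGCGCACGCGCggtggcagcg
Sdha (chr13:74350276-74350305, minus strand): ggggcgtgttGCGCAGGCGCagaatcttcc
Ndufa5 (chr6:24527697-24527726, minus strand): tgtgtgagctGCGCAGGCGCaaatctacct
Ndufs5 (chr4:123718265-123718294, minus strand): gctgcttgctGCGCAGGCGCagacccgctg
Ndufa8 (chr2:36049349-36049378, minus strand): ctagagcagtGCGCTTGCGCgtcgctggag
Cox6a1 (chr5:115349101-115349130, minus strand): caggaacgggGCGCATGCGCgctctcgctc
Atp5g2 (chr15:102671070-102671099, minus strand): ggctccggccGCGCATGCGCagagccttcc
Atp5k (chr5:108434430-108434459, minus strand): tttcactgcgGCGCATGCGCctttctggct

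None of the 11 genes with a match was called in any comparison. Of all probe sets, 5.4 percent were called in SHS4m against Control, 2.07 percent in recovery against Control and 2.54 percent in recovery against SHS4m. At such shares 11 genes are too few for the absence of calls to tell them from other genes. Their SHS4m minus Control differences had a median of -0.09 and ranged from -0.35 (Cox6a1) to 0.22 (Sdhd), and their recovery minus Control differences had a median of -0.13 and ranged from -0.22 (Cox6a1) to 0.28 (Sdhd). The 55 genes with a start and no match had medians of -0.03 and 0. Whether the genes with and without a match differ was not tested.

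Citrate cycle genes, whose enzymes feed NADH and succinate to the chain, lay higher in SHS4m livers than the subunits did. Of 12 genes on the array, 6 were called higher and none lower, against 2.52 percent and 2.87 percent of all probe sets, and the median difference of the 12 was 0.15. Mdh2, mitochondrial malate dehydrogenase, had 13.87, 13.86, 13.79 and 13.95 in SHS4m livers, 13.71, 13.57, 13.77 and 13.58 in recovery livers, and 13.44, 13.44, 13.35 and 13.36 in Control livers. The 3 groups did not overlap. Mdh2 rose by 38.7% in SHS4m livers (log2 difference 0.47, adjusted p = 0.00136 from limma) and by 20.0% in recovery livers (0.26, adjusted p = 0.0364).

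Fh1, fumarase, had 14.31, 14.06, 14.03 and 14.29 in SHS4m livers, 13.79, 13.78, 13.56 and 13.44 in recovery livers, and 13.57, 13.84, 13.71 and 13.65 in Control livers. It was higher in SHS4m than in Control livers by 0.48 (adjusted p = 0.0256) and lower in recovery than in SHS4m livers by -0.53 (adjusted p = 0.0288). Idh3g, a subunit of the NAD-linked isocitrate dehydrogenase, rose by 0.42 in SHS4m livers (adjusted p = 0.00573), and Ogdh, of the oxoglutarate dehydrogenase complex, by 0.32 in SHS4m livers and 0.37 in recovery livers (adjusted p = 0.0371 and 0.0379). The other 2 called in SHS4m livers were Dlst (0.31) and Sucla2 (0.14), named after their values were seen. The calls against Control of Mdh2 and Idh3g in SHS4m livers held in all 12 fits that left out 1 array, those of Fh1 and Ogdh in SHS4m livers in 7 and 4, and those of Mdh2 and Ogdh in recovery livers in 4 and 2. Of the 9 other settings, 8 kept the SHS4m calls of Mdh2 and Idh3g, lost with no floor, 6 that of Fh1 and 3 that of Ogdh. Those of Mdh2 and Ogdh in recovery livers were kept under 3 each, and that of Fh1 against SHS4m under 5.

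**Figure D5:**
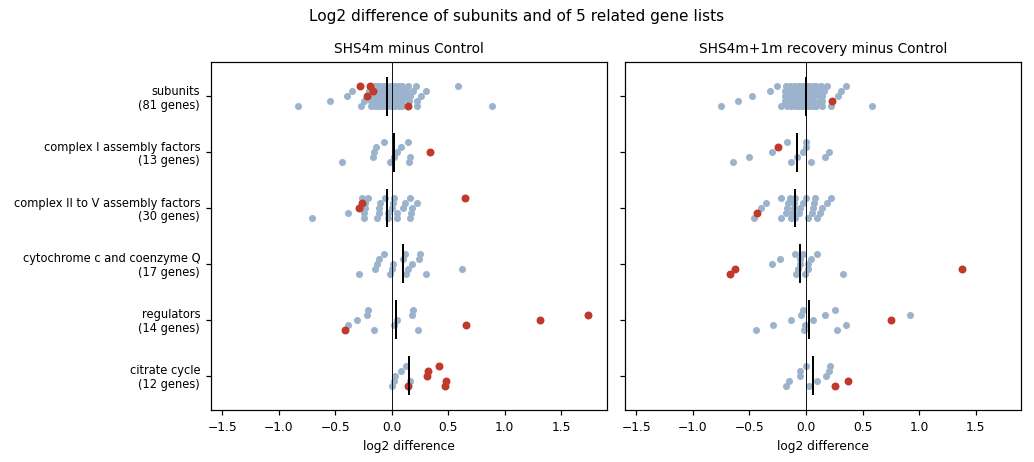
Log2 difference from Control (x axis) of the 81 subunit genes and of 5 lists of related genes (rows, 1 point a gene, black bars for medians, red for genes called by limma) in SHS4m livers on the left and SHS4m+1m recovery livers on the right. The SHS4m minus Control median is -0.04 for the subunits and 0.15 for the citrate cycle, and the points farthest to the right among the regulators in SHS4m livers are Ppargc1a and Ppargc1b.

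The assembly factors changed in few members. Of 13 complex I assembly factors 1 was called in SHS4m livers, higher, against 2.52 percent of all probe sets, and 1 in recovery livers, lower, against 1.19 percent. Nubpl, which inserts iron-sulfur clusters, rose in SHS4m livers (0.34, adjusted p = 0.0231), with 10.57, 10.6, 10.55 and 10.46 in SHS4m livers and 10.2, 10.12, 10.16 and 10.33 in Control livers. Ndufaf2, a late assembly factor, fell in recovery livers (-0.25, adjusted p = 0.0474). Of 30 factors of complexes II to V, 1 was called higher and 2 lower in SHS4m livers, against 2.52 percent and 2.87 percent of all probe sets, and 1 lower in recovery livers, against 1.19 percent. Coa6, a copper chaperone of complex IV, had 12.91, 12.84, 12.76 and 12.61 in SHS4m livers, 12.6, 12.13, 12.11 and 12.46 in recovery livers, and 12.26, 12.16, 12.12 and 11.99 in Control livers, a difference of 0.65 in SHS4m livers (adjusted p = 0.0137) that was 0.19 in recovery livers (adjusted p = 0.577).

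Uqcc2, needed for cytochrome b and complex III, fell by 0.26 on the log2 scale in SHS4m livers (adjusted p = 0.0105), and Cox19, which handles copper for complex IV, by 0.29 (adjusted p = 0.0342). Sco2, a further copper chaperone, fell by 0.43 on the log2 scale in recovery livers (adjusted p = 0.0475). The calls of Coa6 and Uqcc2 held in all 12 fits that left out 1 array, and those of Nubpl, Cox19, Ndufaf2 and Sco2 in 6, 4, 1 and 1. Of the 9 other settings, 8 kept the call of Coa6, 5 those of Uqcc2 and Nubpl, 4 that of Cox19, 3 that of Sco2 and 2 that of Ndufaf2, and all 6 were lost with no floor.

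Each of the 17 genes listed for cytochrome c, coenzyme Q synthesis and electron transfer to coenzyme Q was read by its brightest probe set alone. None was called in SHS4m livers, where 2 had an unadjusted p under 0.05, against 17.4 percent of all probe sets. In recovery livers 1 was called higher and 2 lower, against 0.877 percent and 1.19 percent. Coq8a, an atypical kinase of coenzyme Q synthesis, had 11.3, 11.33, 11.65 and 11.41 in recovery livers, 12.07, 12.27, 12.61 and 12.14 in SHS4m livers, and 12.02, 11.95, 12.1 and 12.3 in Control livers. It was lower in recovery livers by -0.85 against SHS4m (adjusted p = 0.0101) and by -0.67 against Control (adjusted p = 0.0328). Pdss2, which makes the side chain of coenzyme Q, fell by 0.63 on the log2 scale in recovery livers (adjusted p = 0.0319). The call of Coq8a against SHS4m held in all 12 fits that left out 1 array, and those of Coq8a and Pdss2 against Control in 5 and 6. All 9 other settings kept the call against SHS4m, and 5 kept each of those against Control, which centring and fits of 2 groups ended.

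Coq10b, whose product binds coenzyme Q, was higher in recovery than in Control livers by 1.38 (adjusted p = 0.042), with 11.56, 11.64, 11.69 and 11.26 in recovery livers and 10.45, 10.96, 9.77 and 9.44 in Control livers. The Control values spread over more than those of recovery, and the call was kept in 1 of the 12 fits that left out 1 array and under 6 of the 9 other settings. In SHS4m against Control livers Coq10b was not called (adjusted p = 0.299 from limma). The paper lists Coq10b as raised both before and after recovery, with more than 1 probe set, and only the brightest was read here. The related lists were drawn up, like the subunit list, with earlier results of these data known.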

How the data were processed

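Liver RNA was hybridised to Affymetrix Mouse Genome 430 2.0 arrays. The deposited values are intensities on a linear scale, which the authors made in Affymetrix Expression Console by scaling every array to a trimmed mean of 500, with 2% cut off at either end. Its version and summarisation algorithm are not given in the sources used here. Signals below 32 were raised to 32 and log2 was taken. After leaving out 64 control probe sets, 45037 were fitted with limma 3.58.1 (R 4.3.3) in 1 model of 3 groups of 4 arrays, with Benjamini-Hochberg adjustment over all of them and two-sided tests. Nothing in the labels states a batch. The p-values set a group difference against the spread of arrays within groups, and the number of arrays, 12, limits the precision. Probe sets were named through the platform's annotation table, in which 34945 name 1 gene, 932 several and 9160 none.

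The members and the related lists were chosen with earlier results of these data known. Named genes were, by rule, members called in a comparison, isoform genes, members whose probe sets differed in their call, and up to 4 called genes per related list and comparison; others are marked in the text or are whole-list values. Alternatives were quantile normalization, centring on the array median, floors of 16, at the 25th percentile and none, a filter on dim probe sets, an intensity trend with a robust prior, array weights, fits of 2 groups only, all probe sets of a gene, and leaving out each array. The fit was tested on simulated data. Motifs were searched in RefSeq upstream sequence (GRCm38.p6); figures used matplotlib 3.10.9.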

Additional observations from a re-analysis of the deposited data

Results flagged for a closer look

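Groups of 4 arrays were examined for each named gene, and for the median deviation of the subunits, in each of the 3 groups. In 4 of these 126, 1 array lay apart from the other 3 by a gap above Dixon's critical share of the range. Chance gives this in about 5 of 100 groups. Cox7b2, at the floor on all arrays, could not be flagged. Cox7a1 was 7.0 in Control replicate 2 and 7.67 to 7.71 in the other Control livers. Cox8c was 8.8 in recovery replicate 70 and 9.37 to 9.47 in the other recovery livers. Ndufb11 was 14.32 in SHS4m replicate 66 and 14.26 to 14.27 in the other SHS4m livers, and Uqcc2 was 11.6 in recovery replicate 73 and 11.69 to 11.7 in the other recovery livers.

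The effects in the 2 SHS groups, each against the same Control arrays, differed by the recovery minus SHS4m contrast of limma in 6 named genes. This contrast was 0.14 for Atp5j (adjusted p = 0.0448), 0.15 for Ndufb9 (adjusted p = 0.0424), 0.38 for Polg (adjusted p = 0.0298), -0.53 for Fh1 (adjusted p = 0.0288), -0.85 for Coq8a (adjusted p = 0.0101) and -1.68 for Ppargc1a (adjusted p = 0.00886).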

How the results depend on the processing

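The count of 5 subunit genes called between SHS4m and Control livers was 9 with quantile normalization (0 higher and 9 lower, against 1 and 4), 1 with arrays centred on their median, 1 with a floor of 16, 0 with a floor at the 25th percentile and with no floor, 1 with dim probe sets left out, 10 in a fit of the 2 groups alone and 8 over all 164 probe sets. Leaving out 1 array gave 2 to 11, the lowest without Control replicate 3 or SHS4m replicate 66, 67 or 68, the highest without recovery replicate 72 (4 higher, 7 lower), then 9 without replicate 73. The recovery minus Control count of 1 was 2 with quantile normalization and with an intensity trend, 0 with centring, with each other floor, with the filter and in a fit of 2 groups, 4 over all probe sets, and 1 to 3 without 1 array (3 without replicate 72, 2 without replicate 71). The recovery minus SHS4m count of 2 was 0 with centring, each other floor, the filter or 2 groups alone, and 0 to 3 without 1 array (0 without Control replicate 2 or 3, any SHS4m replicate, or recovery replicate 70 or 72). The count past 2-fold, 0 in each comparison, was 0 to 1 without 1 array in each (1 without Control replicate 2 in both comparisons with Control, without SHS4m replicate 67 in SHS4m against Control and without SHS4m replicate 68 in recovery against SHS4m), and 1 with each other floor in both comparisons of recovery livers and over all probe sets in recovery against Control. Centring gave a median difference of the subunits from Control of 0.04 in SHS4m and 0.08 in recovery livers, with 0.08 over all probe sets in both, a shift that applies to every gene. The direction turned on another probe set for Uqcrq in SHS4m minus Control (0.54, adjusted p = 0.529) and for Cox6c in recovery minus Control (0.33, adjusted p = 0.0147). The cause of the other shifts was not tested. No paired analysis was possible because the groups share no replicate numbers.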
